A study of Homo sapiens with 4 samples.

Results

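The p53 network was followed through 39 genes. They are regulators that hold the transcription factor p53 in check, genes it is known to switch on, and relatives or partners of these. Not every member is thus an established p53 target, for example the death-blocking MCL1 and BCL2L1. They were chosen by name from standard p53 biology, with earlier results of these data known. CDKN1A was left out, as it belongs to the cell cycle inhibitors. All 39 were among the 42067 gene names of the deposited tables, and 38 had enough reads to be tested.

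In cells, p53 is made steadily and destroyed steadily. MDM2 marks it for destruction, MDM4 blocks its activity, and damage to DNA or oxidative stress releases it from both. Freed p53 binds near its target genes, whose products stop the cell cycle, repair DNA, lower oxidants or start apoptosis, and the new MDM2 it induces closes the loop. In liver cells the pathway is known for guarding against damage from toxins and viruses. Huh7, the line used here, is an established line from a human liver cancer (hepatocellular carcinoma).

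The cells were Huh7 in both groups, 1 line from 1 tumour. They were kept for 4 days in medium replaced daily, either mock-treated or with 300 µM hydrogen peroxide (H2O2), and RNA was sequenced from 2 libraries per group. Each group has a library titled H and a library titled Q, and the 4 are called mock H, mock Q, H2O2 H or H2O2 Q here. What the letters stand for was not given. Nothing in the labels says that the libraries came from separate cultures, so p-values measure the spread between these libraries, which may be technical. The libraries held 78126878 to 88409567 mapped read mates. Levels are CPM, the reads of a gene's highest-count transcript model scaled to library size, after TMM scaling (a correction for RNA composition), and a fold change is the log2 difference, H2O2 minus mock. In such bulk RNA, fewer cells with a transcript and less of it per cell cannot be told apart.

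All 10 hepatocyte markers looked at, such as ALB and APOB, were detected, with a summed level of 18630 and 6034 CPM in mock H and Q and of 21880 and 12480 CPM in H2O2 H and Q. The leukocyte gene PTPRC lay between 0.0516 and 0.272 CPM, while the 5 leukocyte markers summed to between 414 and 616 CPM, nearly all of it LYZ. Endothelial markers summed to between 2.30 and 2.91 CPM and stromal markers to between 17.4 and 26.5 CPM. In each group the Q library had the lower hepatocyte sum, and its part in the differences between letters described below was not tested.

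No member passed the test between groups, and the members with the largest differences lay on both sides. The upper side was led by GADD45B, GADD45G, PLK3, AEN, PMAIP1 and the barely detected EDA2R, and the lower side by TP53INP1, CCNG2, TP53I3, PERP and APAF1. MDM2, BAX and BBC3, among the best known p53 targets, differed by 0.19 or less in size. CDKN1A on chromosome 6, the cell cycle inhibitor p21 and a leading p53 target, measured 49.4 and 55.0 CPM in mock and 40.3 and 36.2 CPM in H2O2 (−0.45, SE 0.19, edgeR adjusted p = 0.719).

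Over the whole table, 0 of 27514 genes passed at an adjusted p of 0.05 in edgeR's quasi-likelihood test (0%), and 139 passed in DESeq2. At an unadjusted p under 0.05 edgeR placed 856 genes higher in H2O2 (3.11%) and 1042 lower (3.79%), or 434 and 930 when libraries were scaled by total count alone. Without H2O2 H these were 208 and 317, without H2O2 Q 558 and 947, and without mock Q 11 genes passed the adjusted threshold. Of the 38 members tested, 0 passed in edgeR (lowest adjusted p = 0.719) and 1, GADD45B, in DESeq2 (adjusted p = 0.0103). At an unadjusted p under 0.05 edgeR placed 5 members higher (GADD45B, AEN, PMAIP1, GADD45G and PPM1D) and 4 lower (APAF1, PERP, TP53I3 and SESN2), which was 13.2% and 10.5% of the members. Among RefSeq mRNA genes, a background without the non-coding genes, these shares were 3.92% and 3.87%. With total count scaling the members' counts were 1 and 4, beside 1.58% and 3.38% of all genes. They were 2 and 0 without H2O2 H (0.756% and 1.15% of all genes) and 1 and 1 without H2O2 Q (2.03% and 3.44%). They were 2 and 2 without mock H (3.77% and 3.79%), and 7 and 3 without mock Q (3.75% and 4.77%).

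Both H2O2 values lay above both mock values for 10 members and below them for 6, while 22 overlapped. Over all genes tested 18.1% lay wholly above and 21.3% wholly below, and among RefSeq mRNA genes 21.1% and 17.7%, so the members' shares of 26.3% and 15.8% are close to what the table holds in general. The members' median fold change was 0.06, beside −0.03 for all genes tested, but −0.0057 with total count scaling and −0.0045 without H2O2 H. Among these, 1 of the 10 higher members, EDA2R, passed the filter on low counts through the H2O2 libraries alone and therefore had to lie higher. The plot of fold changes shows the members by role.

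**Figure D1:**
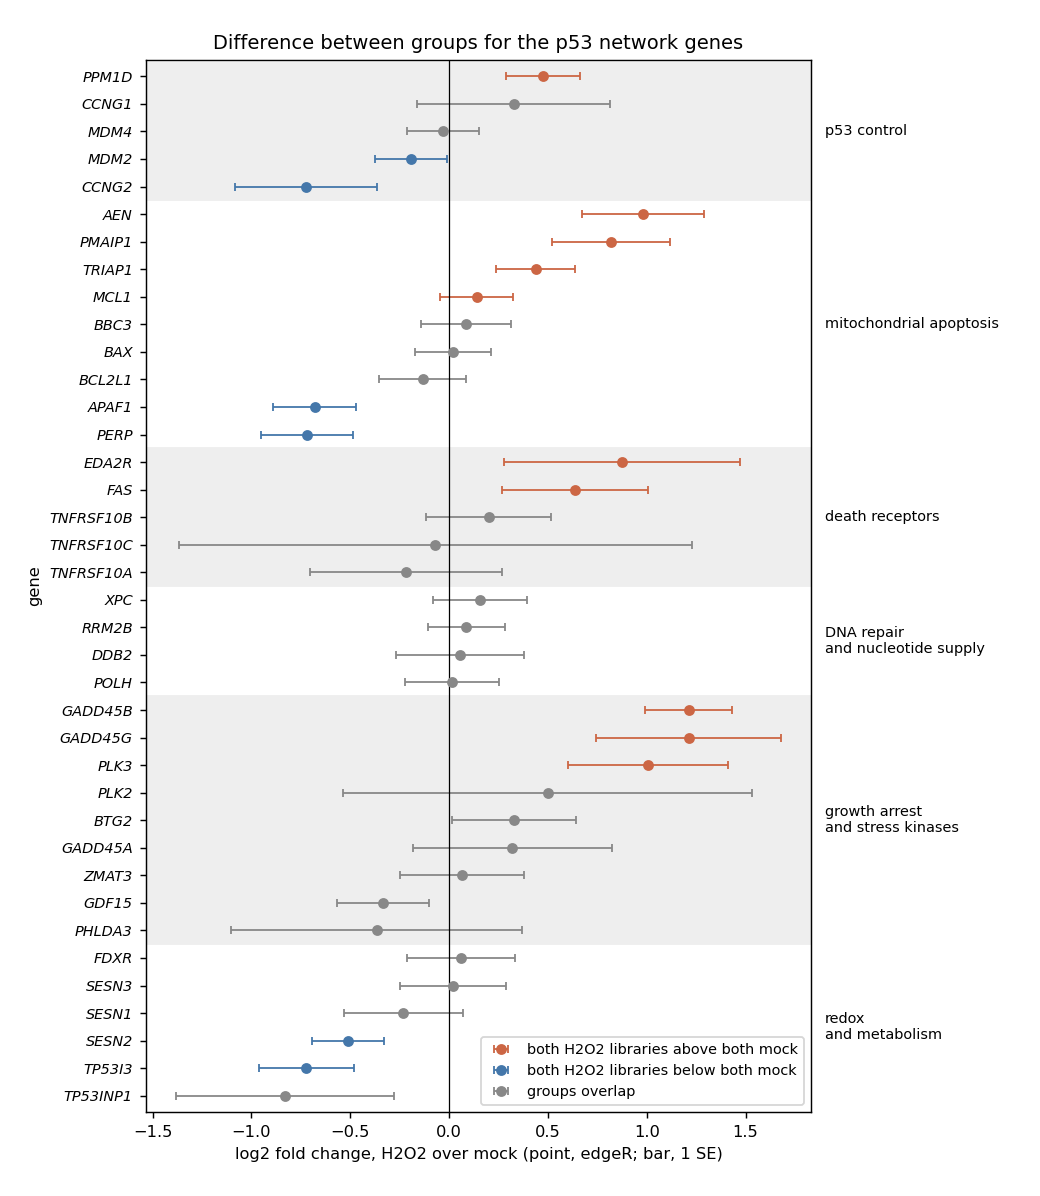
Log2 fold change of H2O2 over mock (x axis) for the 38 tested members (y axis), grouped by role, with points from edgeR, bars of 1 SE and n = 2 libraries per group. Colour marks whether both H2O2 libraries lay above (10 members) or below (6 members) both mock libraries; values run from −0.83 for TP53INP1 to 1.21 for GADD45B.

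The members' promoters were read for the sequence that p53 binds, since members on both sides of the comparison are classic p53 targets. The RefSeq promoter table (GRCh38.p14, windows of 250 bases before to 50 after a start site) held 31 of the 39 members in 44 windows. The p53 consensus decamer was searched as an exact match. A neighbouring decamer with even 1 departing base was therefore neither marked nor counted towards a pair. The consensus is its own reverse complement, so 1 pass covers both strands, and no other motif was searched. The decamer was found for 6 of the 31 members (19.4%), against 8.06% of the 27305 genes in the table. Per window the shares were 13.6% and 6.63%. A full element, a pair of decamers at most 13 bases apart, was found for 1 member, DDB2 (3.23%), against 0.0366% of all genes. The members were named from p53 biology, so larger shares than in all genes were likely beforehand and are no finding of these data. Shown here are 4 windows with decamers in capitals: AEN because it is the decamer-bearing member with the largest fold change (0.98), SESN1 the one with the lowest (−0.23), DDB2 for its full element, and FAS for a death receptor. The AEN window lies at chr15:88621090-88621389 (plus strand), that of DDB2 at chr11:47214724-47215023 (plus strand), that of FAS at chr10:88991181-88991480 (plus strand) and that of SESN1 at chr6:109008939-109009238 (minus strand). Each is printed 5′ to 3′ on the gene's own strand.
AEN: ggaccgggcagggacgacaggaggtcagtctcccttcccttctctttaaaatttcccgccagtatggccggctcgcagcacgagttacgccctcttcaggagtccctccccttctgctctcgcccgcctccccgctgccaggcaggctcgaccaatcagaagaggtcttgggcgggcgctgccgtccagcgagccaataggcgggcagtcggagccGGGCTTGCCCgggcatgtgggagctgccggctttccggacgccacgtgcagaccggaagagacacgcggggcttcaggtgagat
DDB2: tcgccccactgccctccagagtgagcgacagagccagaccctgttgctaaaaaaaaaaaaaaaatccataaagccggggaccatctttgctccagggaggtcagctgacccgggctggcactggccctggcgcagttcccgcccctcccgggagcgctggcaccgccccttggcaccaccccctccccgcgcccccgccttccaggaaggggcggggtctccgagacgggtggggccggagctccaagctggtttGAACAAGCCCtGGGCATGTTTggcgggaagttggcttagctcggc
FAS: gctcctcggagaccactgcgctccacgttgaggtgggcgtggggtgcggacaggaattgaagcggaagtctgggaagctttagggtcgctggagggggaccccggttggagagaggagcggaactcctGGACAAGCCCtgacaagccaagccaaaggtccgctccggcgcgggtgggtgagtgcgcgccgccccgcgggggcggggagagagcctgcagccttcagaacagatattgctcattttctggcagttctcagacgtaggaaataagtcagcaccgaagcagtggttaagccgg
SESN1: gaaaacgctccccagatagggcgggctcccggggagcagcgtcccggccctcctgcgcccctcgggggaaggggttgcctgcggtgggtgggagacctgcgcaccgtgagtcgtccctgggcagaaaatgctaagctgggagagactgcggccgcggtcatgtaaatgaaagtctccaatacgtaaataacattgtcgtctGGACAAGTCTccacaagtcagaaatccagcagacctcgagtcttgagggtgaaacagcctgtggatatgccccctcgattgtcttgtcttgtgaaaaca
The AEN decamer began 34 bases before the start site, that of FAS 122 bases before it in 1 of 3 windows, and that of SESN1 49 bases before it in 1 of 3 windows. The DDB2 decamers began 5 and 16 bases after the start site. PLK2 and FDXR also held a decamer, 132 and 11 bases before the start. The 6 members with a decamer had fold changes of 0.98 (AEN), 0.64 (FAS), 0.50 (PLK2), 0.06 (FDXR), 0.05 (DDB2) and −0.23 (SESN1). GADD45B, the member with the largest fold change, had none in its window, and a match describes the letters and not binding.

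No gene that controls p53 passed the test between groups, and CCNG2 and PPM1D had the largest fold changes in size among them. MDM2 on chromosome 12, the ubiquitin ligase that destroys p53, measured 90.3 and 81.4 CPM in mock H and Q and 73.3 and 77.0 CPM in H2O2 H and Q. Both H2O2 values lay below both mock values, by a margin smaller than the gap between the mock libraries (−0.19, SE 0.18, adjusted p = 0.82), and the fold change was −0.12 without mock H and −0.04 with the deposited FPKM. MDM4 on chromosome 1, its partner that blocks p53 directly, measured 39.9 and 35.7 CPM in mock and 37.3 and 36.8 CPM in H2O2 (−0.03, SE 0.18). Its groups overlapped, and the sign turned with RLE size factors in place of TMM (0.00), with DESeq2 (0.00) and with the deposited FPKM (0.21).

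PPM1D on chromosome 17, the phosphatase WIP1 that removes activating phosphates from p53 and from the damage kinases, measured 20.5 and 20.1 CPM in mock and 29.3 and 27.2 CPM in H2O2. Its libraries lay close together within each group, at 20.3 ± 0.295 and 28.3 ± 1.48 CPM (SD, n = 2), and the groups did not overlap (0.48, SE 0.19, adjusted p = 0.719). The fold change stayed between 0.42 and 0.54 without each library in turn. CCNG1 on chromosome 5, the cyclin G1 that recruits a phosphatase to MDM2, measured 146 and 72.3 CPM in mock H and Q and 186 and 87.8 CPM in H2O2 H and Q (0.33, SE 0.49). It was the letters that separated here, with library H about the same distance above library Q in both groups, and the fold change was −0.31 without H2O2 H and −0.10 without mock Q. CCNG2 on chromosome 4, the related cyclin G2 of resting cells, measured 92.0 and 46.6 CPM in mock and 45.6 and 38.3 CPM in H2O2. Mock H stood apart from the other 3 libraries, and the fold change of −0.72 (SE 0.36, adjusted p = 0.727) was −0.15 without it and −1.14 without mock Q.

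**Figure D2:**
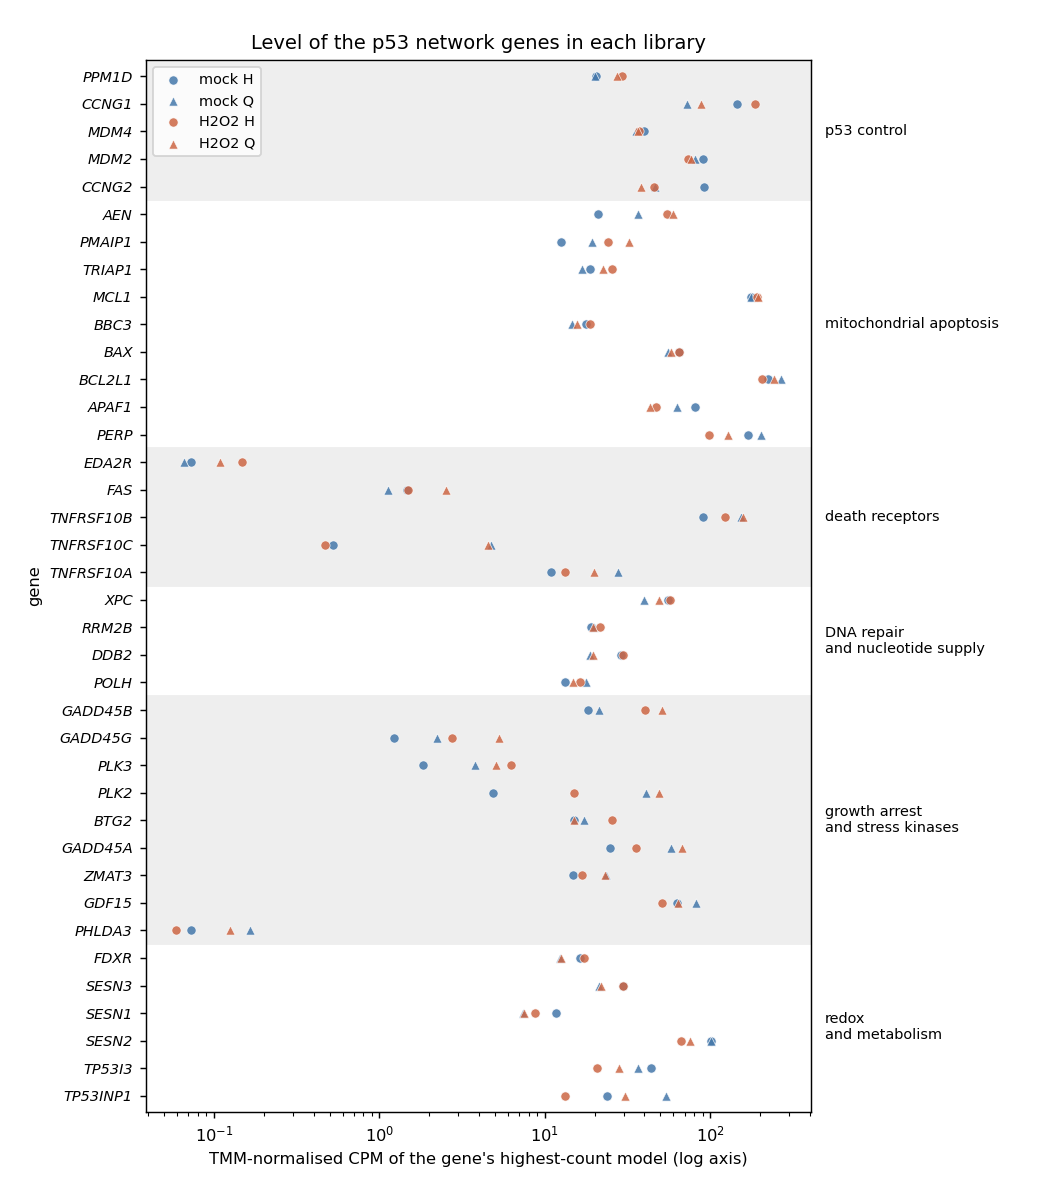
Level of the 38 tested members in each of the 4 libraries (x axis, TMM-normalised CPM on a log axis; y axis, genes by role); blue marks mock, orange H2O2, circles letter H and triangles letter Q. GADD45B, PMAIP1 and AEN have both H2O2 marks to the right of both mock marks, while PLK2, TNFRSF10C and CCNG1 are split by letter instead.

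Among apoptosis genes of the mitochondrial pathway, 4 of 9 lay wholly higher in H2O2 (44.4%), 2 wholly lower (22.2%) and 3 overlapped. Over all genes tested these shares were 18.1% and 21.3%, and 9 genes are too few for a statement about the role. PMAIP1 on chromosome 18 encodes NOXA, a BH3-only protein that neutralises MCL1. It measured 12.6 and 19.4 CPM in mock H and Q and 24.2 and 32.1 CPM in H2O2 H and Q. Both H2O2 values were above both mock values (0.82, SE 0.30, adjusted p = 0.719), and the fold change ranged from 0.54 (without mock H) to 1.16 (without mock Q). The other BH3-only member, BBC3 on chromosome 19, encodes PUMA, a direct activator of mitochondrial cell death and a classic p53 target. It measured 17.7 and 14.6 CPM in mock and 18.7 and 15.6 CPM in H2O2 (0.09, SE 0.23), with each letter's values nearly level across groups.

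BAX on chromosome 19, the pore former of the mitochondrial outer membrane, measured 64.9 and 55.7 CPM in mock and 64.5 and 57.9 CPM in H2O2. These groups overlapped, and the fold change of 0.02 (SE 0.19) was −0.04 with total count scaling. The death-blocking members were among the most abundant. MCL1 on chromosome 1 measured 177 and 176 CPM in mock and 193 and 196 CPM in H2O2 (0.14, SE 0.18), a small difference between groups that did not overlap. BCL2L1 on chromosome 20, which encodes BCL-XL, lay between 205 and 268 CPM with overlapping groups (−0.13, SE 0.22).

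AEN on chromosome 15, a nuclease that p53 induces and that digests DNA during apoptosis, measured 21.1 and 36.8 CPM in mock H and Q and 55.1 and 59.2 CPM in H2O2 H and Q. Both H2O2 libraries lay well above both mock libraries, and the mock libraries were the farther apart (SD 11.1 CPM in mock and 2.90 CPM in H2O2, n = 2). The fold change was 0.98 (SE 0.31, adjusted p = 0.719), and 0.63 without mock H. The AEN promoter shown above carries a decamer close to its start site. TRIAP1 on chromosome 12, a small mitochondrial protein that restrains apoptosis, measured 18.7 and 16.7 CPM in mock and 25.4 and 22.6 CPM in H2O2, with no overlap (0.44, SE 0.20, adjusted p = 0.725).

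APAF1 and PERP stood on the other side. APAF1 on chromosome 12, the scaffold of the apoptosome that activates caspase-9, measured 81.5 and 63.4 CPM in mock H and Q and 47.0 and 43.4 CPM in H2O2 H and Q. Both H2O2 values lay below both mock values (−0.68, SE 0.21, adjusted p = 0.719), and the fold change ran from −0.85 to −0.49 without each library in turn. In GENCODE v29, 750 exon bases of ANKS1B on the opposite strand overlap an APAF1 exon, and no source used here says whether counting used strand. PERP on chromosome 6, a membrane protein of desmosomes and a p53 effector in apoptosis, measured 169 and 202 CPM in mock and 97.9 and 128 CPM in H2O2. These groups did not overlap either, at 185 ± 23.1 and 113 ± 20.9 CPM (SD, n = 2; −0.72, SE 0.23, adjusted p = 0.719).

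Of the death receptors, which start apoptosis from the cell surface, those for TRAIL differed more between letters than between groups. FAS on chromosome 10, the receptor of FAS ligand, was low, at 1.47 and 1.13 CPM in mock H and Q and 1.5 and 2.53 CPM in H2O2 H and Q. Only H2O2 Q stood out, and H2O2 H was level with mock H (0.64, SE 0.37, adjusted p = 0.753). Without H2O2 Q the fold change was 0.22, and without H2O2 H it was 0.96. TNFRSF10B on chromosome 8, the TRAIL receptor DR5, measured 91.0 and 154 CPM in mock and 123 and 159 CPM in H2O2 (0.20, SE 0.32). TNFRSF10A, the neighbouring receptor DR4, measured 10.9 and 27.6 CPM in mock and 13.2 and 19.8 CPM in H2O2 (−0.22, SE 0.49). Both receptors were higher in library Q of each group.

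TNFRSF10C on chromosome 8 encodes a decoy receptor that binds TRAIL without passing on a death signal. It measured 0.527 CPM in mock H and 4.74 CPM in mock Q, and 0.470 CPM in H2O2 H and 4.55 CPM in H2O2 Q. Library Q was 9.0-fold above library H in mock and 9.68-fold in H2O2, from 48 to 51 reads in the H libraries and 544 to 574 in the Q libraries, while the groups differed by −0.07 (SE 1.3). EDA2R on chromosome X, the ectodysplasin A2 receptor, had 7 and 8 reads in mock and 15 and 13 reads in H2O2. Its fold change of 0.87 (SE 0.60) rests on these reads and on the filter named above.

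The DNA repair and nucleotide members had fold changes between 0.01 and 0.16. XPC on chromosome 3, the damage sensor of nucleotide excision repair, measured 55.5 and 40.0 CPM in mock H and Q and 57.4 and 48.9 CPM in H2O2 H and Q (0.16, SE 0.24). Parts of its exons overlap LSM3 on the opposite strand. DDB2 on chromosome 11, which finds ultraviolet damage, measured 28.8 and 18.7 CPM in mock and 29.7 and 19.6 CPM in H2O2 (0.05, SE 0.32). Its values were ordered by letter, with nearly the same pair in each group. Its promoter is the one with the full p53 element shown above. POLH, the polymerase that copies past damaged bases, lay between 13.2 and 17.6 CPM, and RRM2B, the p53-inducible ribonucleotide reductase subunit, between 19.0 and 21.7 CPM. Their fold changes were 0.01 (SE 0.24) and 0.09 (SE 0.19). In all 4 repair members the groups overlapped.

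GADD45B and GADD45G had the largest fold changes of the network, while GADD45A overlapped between groups. The GADD45 genes encode small proteins that bind stress kinases and repair factors, and GADD45A is the one best known as a p53 target. GADD45B on chromosome 19 measured 18.2 and 21.3 CPM in mock H and Q and 40.5 and 51.1 CPM in H2O2 H and Q. Both H2O2 libraries were far above both mock libraries, at 45.8 ± 7.50 against 19.8 ± 2.24 CPM (SD, n = 2). The fold change was 1.21 (SE 0.22), with an unadjusted p of 0.00237 and an adjusted p of 0.719 in edgeR, and it ranged from 1.05 to 1.37 without each library in turn.

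GADD45G on chromosome 9 was lower in level, at 1.22 and 2.23 CPM in mock and 2.73 and 5.27 CPM in H2O2. Its groups did not overlap (1.21, SE 0.47, adjusted p = 0.719), although H2O2 H was near mock Q, and the fold change was 0.68 without H2O2 Q. GADD45A on chromosome 1 measured 24.6 and 57.7 CPM in mock H and Q and 35.4 and 67.4 CPM in H2O2 H and Q (0.32, SE 0.50). Within each letter the H2O2 library was higher, but the letters lay farther apart than the groups, and the fold change was −0.20 without H2O2 Q and −0.17 without mock H.

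The polo-like kinases PLK2 and PLK3 act in stress and cell cycle checkpoints. PLK3 on chromosome 1 measured 1.84 and 3.78 CPM in mock H and Q and 6.23 and 5.08 CPM in H2O2 H and Q. Both H2O2 values lay above both mock values (1.01, SE 0.40, adjusted p = 0.719), and the fold change was 0.58 without mock H and 1.62 without mock Q. PLK2 on chromosome 5 measured 4.85 and 40.7 CPM in mock and 15.0 and 49.4 CPM in H2O2. Mock H was the low library, both Q libraries were high, and the fold change of 0.50 (SE 1.04) was −0.58 without H2O2 Q and −0.34 without mock H.

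The other growth arrest members overlapped between groups. BTG2, an antiproliferative protein, measured 15.0 and 17.4 CPM in mock and 25.7 and 15.0 CPM in H2O2, so that H2O2 H alone was high (0.33, SE 0.31; −0.11 without H2O2 H). GDF15, a secreted stress cytokine, measured 62.6 and 82.4 CPM in mock and 51.3 and 63.5 CPM in H2O2 (−0.34, SE 0.23; −0.13 without mock Q, −0.19 without H2O2 H and −0.52 without mock H). The RNA-binding protein gene ZMAT3 lay between 14.8 and 23.4 CPM (0.07, SE 0.31). PHLDA3, an inhibitor of the kinase AKT, was barely detected, with 6 to 20 reads per library.

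Of the 6 redox and metabolic members tested, 0 lay wholly higher and 2 wholly lower in H2O2 (33.3%). Over all genes tested these shares were 18.1% and 21.3%, and 6 genes are too few for a statement about the role. The sestrins restrain the growth kinase complex mTORC1 and support peroxiredoxins. SESN2 on chromosome 1 measured 101 CPM in both mock libraries and 66.7 and 75.5 CPM in H2O2 H and Q. The mock libraries were nearly identical and both H2O2 libraries lay below them (−0.51, SE 0.18, adjusted p = 0.719; −0.59 to −0.42 without each library in turn). SESN1 on chromosome 6, the sestrin most tied to p53, measured 11.7 and 7.36 CPM in mock and 8.71 and 7.51 CPM in H2O2. Mock H was the highest of the 4, and the fold change of −0.23 (SE 0.30) was 0.14 without it. SESN3 lay between 21.4 and 29.7 CPM, with each letter level across groups (0.02, SE 0.27).

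TP53I3 on chromosome 2, the quinone oxidoreductase PIG3, measured 43.8 and 36.5 CPM in mock H and Q and 20.7 and 28.0 CPM in H2O2 H and Q. Both H2O2 values lay below both mock values (−0.72, SE 0.24, adjusted p = 0.719). TP53INP1 on chromosome 8, a stress protein of p53 signalling and autophagy, measured 23.6 and 53.9 CPM in mock and 13.2 and 30.4 CPM in H2O2. H2O2 was lower within each letter, yet H2O2 Q exceeded mock H, so the groups overlapped (−0.83, SE 0.55, adjusted p = 0.773). The fold change was −0.12 without mock Q and −0.35 without H2O2 H, but −1.31 without mock H and −1.54 without H2O2 Q. FDXR, the mitochondrial ferredoxin reductase, lay between 12.3 and 17.3 CPM (0.06, SE 0.27). SPATA18, which takes part in mitochondrial quality control, had 7 and 8 reads in the mock libraries and 5 and 7 in the H2O2 libraries and was the member not tested.

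Several members differed more by library letter than by treatment. In both groups 16 members were higher in library Q and 14 in library H, and for 8 the direction differed between groups. Of all genes, 36.7% were higher in Q and 32.7% in H in both groups, beside 42.1% and 36.8% of the members. Library Q differed from library H by at least 1 log2 unit, in the same direction in both groups, for 5 members: TNFRSF10C (3.17 in mock and 3.27 in H2O2), PLK2 (3.07 and 1.72), TP53INP1 (1.19 and 1.21), PHLDA3 (1.19 and 1.09) and CCNG1 (−1.01 and −1.08). That is 13.2% of the members, beside 4.90% of the RefSeq mRNA genes tested. For 16 members the letters differed in the same direction in both groups and the smaller of the gaps exceeded the fold change between groups, which is 42.1% of them, beside 33.0% of all genes and 36.3% of mRNA genes. The plot of the gap between libraries in each group shows some members near the line of equal gaps, such as TNFRSF10C and CCNG1, and others off it, such as PLK2. Between the libraries of 1 letter, 19 members were higher in H2O2 for both letters, 11 lower for both, and 8 opposite. The members' shares were 50% higher and 28.9% lower for both letters, beside 32.3% and 34.3% of all genes and 37.8% and 30.4% of mRNA genes.

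**Figure D3:**
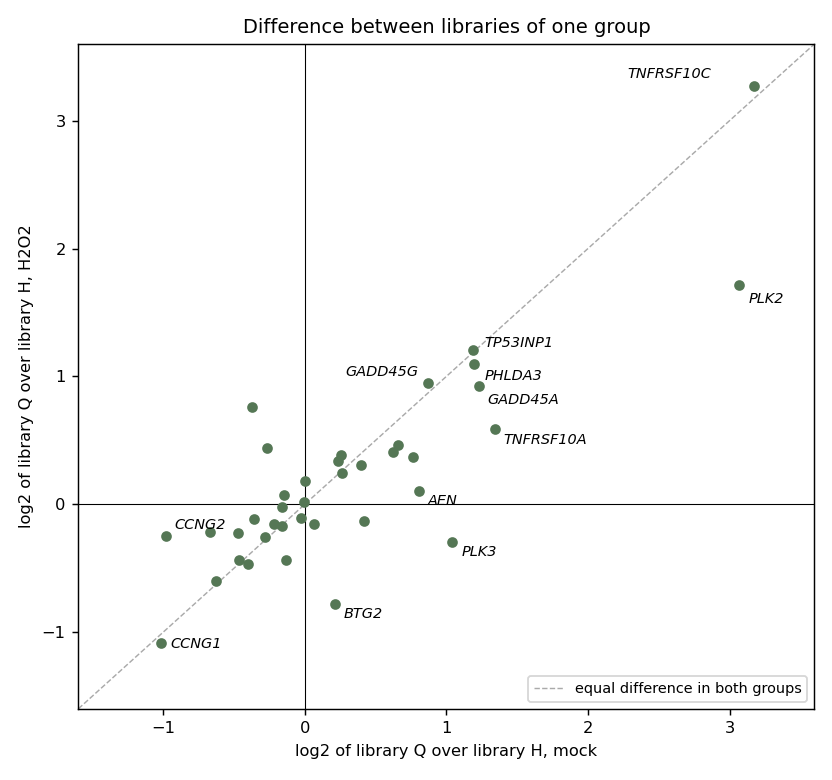
Each point is 1 of the 38 tested members, with log2 of library Q over library H in mock on the x axis and in H2O2 on the y axis; points on the dashed line differ equally in both groups. TNFRSF10C lies near the line at 3.17 and 3.27, PLK2 at 3.07 and 1.72, and CCNG1 at −1.01 and −1.08.

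Levels were compared between members per length, as mean CPM per kilobase of the model in GENCODE v29. In mock BCL2L1 had 94.2, BAX 76.0, TNFRSF10B 71.2, GDF15 60.4, MCL1 44.9, CCNG1 44.4 and PERP 43.2 CPM per kilobase, while PUMA's gene BBC3 had 8.79, NOXA's gene PMAIP1 8.19 and MDM2 6.79. At the low end FAS had 0.507 and EDA2R 0.0200 CPM per kilobase. The receptor genes thus differed widely in level in mock, from EDA2R, the lowest of the tested members there, to TNFRSF10B. In H2O2 PHLDA3 (0.0349) lay below EDA2R (0.0369). The order among the high members depends on the model whose length is used. For TNFRSF10B, models of 1723 and 4146 bases held 8812 and 8730 reads in mock H. For BAX, models of 793 and 1358 bases held 6281 and 5985 reads. The deposited FPKM, whose formula is not known, gave another order. By it MDM2 (192) lay above MCL1 (160) in mock H, while BCL2L1 (272) lay above both.

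Outside the members, no gene of the pathway lists passed the adjusted threshold. The background for the counts of each list is all 27514 genes tested, of which 12995 were higher and 14519 lower in H2O2. Of 27 upstream regulators tested, 15 were higher and 12 lower in H2O2, with a median fold change of 0.03 and 0 past the adjusted threshold. At an unadjusted p under 0.05 in edgeR, 1 was higher (3.7%) and 0 lower, beside 3.11% and 3.79% of all genes. The checkpoint kinases of the DNA damage response had the largest fold changes among them. CHEK2 on chromosome 22 measured 28.4 and 18.6 CPM in mock H and Q and 55.0 and 35.5 CPM in H2O2 H and Q, without overlap (0.94, SE 0.33, adjusted p = 0.719; 0.59 without H2O2 H). CHEK1 on chromosome 11 measured 26.4 and 32 CPM in mock and 41.8 and 39.8 CPM in H2O2 (0.48, SE 0.20). ATR on chromosome 3, the kinase that activates CHEK1, measured 26.3 and 34.6 CPM in mock and 38.9 CPM in both H2O2 libraries (0.35, SE 0.21; 0.17 without mock H and 0.56 without mock Q).

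Of 29 other p53 targets tested, 13 were higher and 16 lower, with a median of −0.03 that was 0.23 without mock Q and 0.02 without H2O2 H. SFN on chromosome 1, the cell cycle brake 14-3-3 sigma, measured 2.77 and 3.05 CPM in mock and 1.39 and 1.84 CPM in H2O2, without overlap (−0.85, SE 0.28). TP53AIP1, an apoptosis inducer of mitochondria, lay at 0.685 CPM or less in every library (−0.72, SE 0.41; −0.40 without H2O2 H and −1.14 without H2O2 Q).

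Of 21 other apoptosis genes tested, 13 were higher and 8 lower, with a median of 0.17 that was −0.14 without mock H and −0.05 without H2O2 Q. BMF on chromosome 15, a BH3-only protein, measured 57.7 and 74.5 CPM in mock and 31.2 and 44.9 CPM in H2O2, without overlap (−0.80, SE 0.27). BIK, another BH3-only gene, was ordered by letter, at 3.05 and 14.6 CPM in mock and 1.74 and 7.28 CPM in H2O2 (−0.97, SE 0.94). BCL2 was near the limit of detection, at 0.335 CPM or less (0.61, SE 0.73). In the plot of the lists, all 4 medians lie within the middle range of all genes tested.

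**Figure D4:**
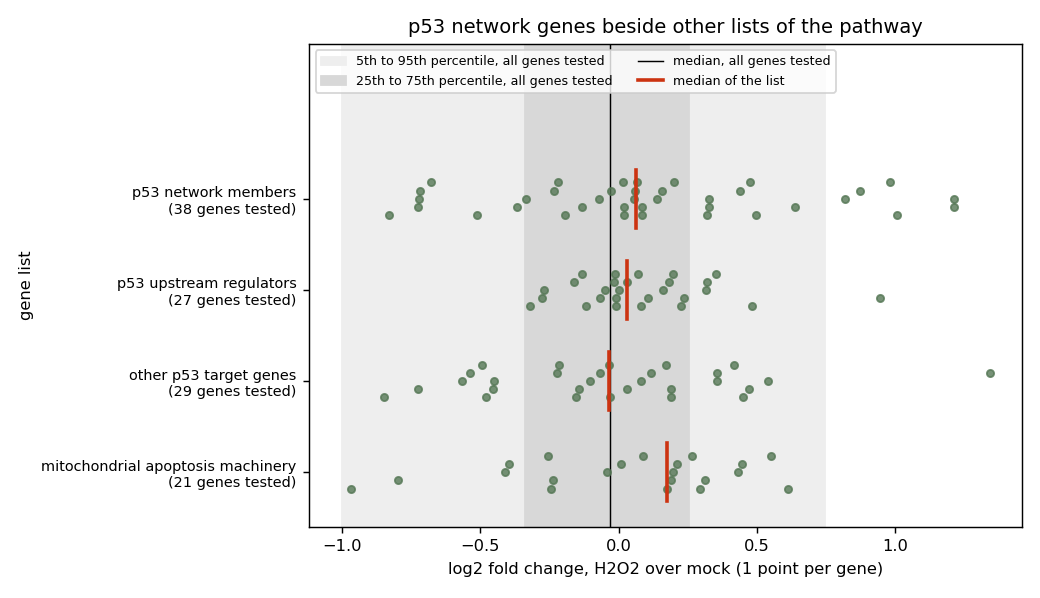
Log2 fold change of H2O2 over mock (x axis), 1 point per gene, for the p53 network members and the other lists of the pathway (y axis); red bars are list medians and grey bands the middle ranges of all 27514 genes tested. The medians are 0.06, 0.03, −0.03 and 0.17, beside −0.03 for all genes.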

How the data were processed

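The 39 members and the other gene lists were chosen with earlier results of these data known. Tools named in the submitters' processing notes are TopHat 1.3.3, Bowtie 0.12.2, CASAVA and Cuffdiff; hg19, GRCh37 and mm8 appear there as builds without a role. Which program counted reads, and whether by strand, is not given in the sources used here. Each deposited table lists 58146 transcript models with their read counts and FPKM values, per the file headers. Isoforms repeated the same reads, so 1 model per gene was used, that of the highest count over the 4 libraries. These counts totalled 103851326 to 113082498 per library, more than the mapped mates, so precision is lower than the counts imply.

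Genes were kept by filterByExpr (count minimum 10), which left 27514, and tested with edgeR 4.0.16 (TMM, two-sided quasi-likelihood test, treatment as the sole term, 2 residual degrees of freedom, Benjamini-Hochberg adjustment over all genes). The SE is the fold change divided by the root of F. Alternatives included DESeq2 1.42.0 and limma 3.58.1 on log2 of the deposited FPKM plus 1 or 0.1. The FPKM did not follow reads over model length, so its formula is not known. Every member is named; all 4 values are given for the 12 of largest fold change, for those whose groups do not overlap and for anchors of each role, and from each other list the 3 of largest fold change are named, with CDKN1A, except for results that are not reported here. Of the members, 13 share exon bases with another gene in GENCODE v29 (GRCh38), 10 of them on the opposite strand.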

Additional observations from a re-analysis of the deposited data

How the results depend on the processing

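Of the 13 alternatives per result, 20 of the 38 tested members kept the direction of their fold change in every one they could be computed for, among them GADD45B, PMAIP1, AEN, PLK3, PPM1D, APAF1, PERP, SESN2 and TP53I3. The groups of these named members do not overlap, so leaving out 1 library could hardly turn their sign. The other alternatives reuse the same libraries. The share of all genes that kept direction was not computed, so the count is no measure of how firm the members are. The cause of the shifts below was not tested, except that fewer libraries leave fewer values that can overlap. The number of genes past an adjusted p of 0.05, 0 in the main test, was 9 with no filter, 139 in DESeq2, 45 with the replicate block (title letter as a term) and 0 to 11 without 1 library. Same-letter libraries deviated together (r = 0.47 across genes, from 2 pairs, and genes are not independent replicates); the letters' meaning is not given, so the block is not taken as a pairing. With the replicate block 0 members passed, the adjusted p of GADD45B was 0.0517, and 9 members higher and 7 lower had an unadjusted p under 0.05, as did 9.88% and 9.1% of all genes (3.11% and 3.79% without it). DESeq2 called 1 member. Members at an unadjusted p under 0.05 numbered 3 higher and 4 lower with the FPKM filter (2.95% and 3.87% of all genes), and 3 higher and 2 lower with limma (3.39% and 2.71%, or 3.22% and 2.57% with the smaller pseudocount).

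The members' median of 0.06 was 0.094 with RLE factors and in DESeq2, −0.0057 with total counts alone, 0.21 with limma at either pseudocount, and −0.0045 to 0.124 without 1 library. Members wholly above numbered 13 to 19, and wholly below 7 to 14, without 1 library, where 29.8% to 36% and 31.2% to 40.2% of all genes did. The upstream median was −0.048 with total counts, 0.13 with limma at either pseudocount and 0.016 to 0.11 without 1 library; that of other targets was −0.17 to 0.23 and that of apoptosis genes −0.14 to 0.16 without 1 library. Fold changes near 0 turned negative with total counts for BAX (−0.041), DDB2 (−0.0061), POLH (−0.075), ZMAT3 (−0.011), SESN3 (−0.043) and FDXR (−0.0054). POLH was −0.0046 with the FPKM filter, and MDM4 turned to 0.0015 with RLE factors and in DESeq2 and to 0.21 and 0.22 with limma.

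Without 1 library, fold changes that turned sign ranged from −0.11 to 0.054 for MDM4, −0.31 to 0.92 for CCNG1, −0.053 to 0.23 for BBC3, −0.088 to 0.13 for BAX, −0.74 to 0.60 for TNFRSF10A, −0.13 to 0.63 for TNFRSF10B, −2.47 to 2.25 for TNFRSF10C, −0.066 to 0.41 for XPC, −0.28 to 0.40 for DDB2, −0.18 to 0.23 for POLH, −0.20 to 1.06 for GADD45A, −0.11 to 0.68 for BTG2, −0.58 to 2.73 for PLK2, −1.0 to 0.35 for PHLDA3, −0.23 to 0.43 for ZMAT3, −0.53 to 0.14 for SESN1, −0.22 to 0.27 for SESN3, −0.19 to 0.28 for FDXR, −2.32 to 0.56 for BIK and −0.16 to 1.51 for BCL2. Depth limits PHLDA3, EDA2R and SPATA18, with 20 reads or fewer per library.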

Other observations

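Of the 39 members, 20 had several transcript models in the tables and 19 had 1. The models of a gene gave nearly the same ratio of mean levels, H2O2 over mock. The widest range, on the log2 scale, was 0.07, for the 4 models of BBC3, and the median range over the 20 was 0.01. For APAF1 the 5 models ran from −0.70 to −0.67, and the lowest of them by count held 57.0% of the reads of the highest. The 3 models of TP53I3 ran from −0.72 to −0.68. These models repeat reads, so their likeness is not independent evidence, and none of the 20 ranges exceeded 0.1.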
